A study of Mus musculus with 16 samples.

Results

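The glycolysis and glucose uptake genes examined here are Slc2a1, Hk1, Hk2, Pfkl, Pfkp, Aldoa, Pgk1, Eno1, Pkm and Ldha. These 10 genes were chosen with earlier results of these data known. Every probe set that the platform annotation assigns to 1 of them alone was used. This gave 22 probe sets for 9 genes, out of 15129 named genes with a tested probe set. Eno1 was not analysed here, because no probe set is assigned to it in the annotation used. Of the 22 probe sets, 21 passed the filter on low values and 16 lay above the floor of the measurement on all 16 arrays. A Pfkp probe set (1430634_a_at) did not pass. Genes with several probe sets are represented by the probe set with the highest mean, and the others are described beside it.

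Transcripts were measured on 16 Affymetrix mouse arrays, 4 biological replicates in each of 4 groups. The groups named B6_B1a and B6_Bs came from C57BL/6 mice, and those named Sle2c1_B1a and Sle2c1_Bs from congenic B6.Sle2c1 mice, in which DNA from NZM2410, a mouse strain that develops lupus, replaces a stretch of the C57BL/6 genome holding Cdkn2c, a cell cycle inhibitor gene. All mice were 5 months old, and no drug, transgene or Cre is named in the labels. B1a cells were peritoneal cells left non-adherent after 2 h of culture, depleted with Thy1.2 and CD3ε antibodies and selected with a CD5 antibody, and they are labelled as 80% B220int CD5+. Bs cells were CD43- splenic B cells, labelled as more than 90% B220hi. The labels give the culture step for the peritoneal cells only, so cell type, site and culture cannot be told apart. Other genes of the congenic segment likewise cannot be told apart from Cdkn2c.

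Glucose enters B cells through facilitative transporters, chiefly the one encoded by Slc2a1 (GLUT1). Hexokinases trap it as glucose 6-phosphate, phosphofructokinase commits it to glycolysis, and aldolase, phosphoglycerate kinase, enolase and pyruvate kinase lead on to pyruvate, which lactate dehydrogenase A turns into lactate. Activated B cells raise uptake and glycolysis, and transcription factors of the HIF and MYC families are known to act on many genes of this route.

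The promoter windows of 5 genes are shown because these genes carry the results below. Slc2a1 and Hk2 passed the test between the cell types in both strains, and Ldha in Sle2c1 mice only. Pfkl passed between the strains in B1a cells only, and between the cell types in Sle2c1 mice only. Pgk1, a known HIF target, passed no test. Each window runs from 250 bases before to 50 bases after a transcription start in RefSeq (GRCm38.p6), 5′ to 3′ on the strand of the gene. Capitals mark every ACGTG or GCGTG, the core of HIF-binding elements, on either strand (CACGT and CACGC when read on the opposite strand). Each CACGTG, the E-box bound by MYC, also holds ACGTG on both strands.

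Slc2a1, chr4:119108495-119108794, strand +: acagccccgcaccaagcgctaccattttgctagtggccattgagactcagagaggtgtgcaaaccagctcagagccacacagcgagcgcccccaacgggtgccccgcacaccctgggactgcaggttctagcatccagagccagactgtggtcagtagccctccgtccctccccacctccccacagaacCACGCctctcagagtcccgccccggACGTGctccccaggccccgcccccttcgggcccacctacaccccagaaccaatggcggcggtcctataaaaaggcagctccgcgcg
Hk2, chr6:82774405-82774704, strand -: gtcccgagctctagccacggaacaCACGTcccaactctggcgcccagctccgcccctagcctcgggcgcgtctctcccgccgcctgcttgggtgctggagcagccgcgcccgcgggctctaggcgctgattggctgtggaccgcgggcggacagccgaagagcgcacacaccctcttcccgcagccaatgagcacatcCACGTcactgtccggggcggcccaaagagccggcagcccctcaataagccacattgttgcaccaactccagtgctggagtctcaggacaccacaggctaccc
Ldha, chr7:46845554-46845853, strand +: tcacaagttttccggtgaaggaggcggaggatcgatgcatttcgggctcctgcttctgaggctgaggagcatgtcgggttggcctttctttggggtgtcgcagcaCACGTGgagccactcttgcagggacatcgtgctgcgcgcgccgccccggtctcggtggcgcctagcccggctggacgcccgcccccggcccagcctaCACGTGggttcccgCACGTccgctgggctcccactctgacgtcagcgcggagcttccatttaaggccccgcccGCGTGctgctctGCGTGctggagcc
Pfkl, chr10:78009758-78010057, strand -: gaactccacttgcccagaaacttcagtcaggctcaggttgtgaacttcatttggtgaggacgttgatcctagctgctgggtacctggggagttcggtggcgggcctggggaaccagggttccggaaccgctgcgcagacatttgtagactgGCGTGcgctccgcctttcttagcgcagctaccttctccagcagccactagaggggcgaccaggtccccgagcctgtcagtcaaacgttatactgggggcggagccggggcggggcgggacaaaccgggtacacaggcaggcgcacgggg
Pgk1, chrX:106186850-106187149, strand +: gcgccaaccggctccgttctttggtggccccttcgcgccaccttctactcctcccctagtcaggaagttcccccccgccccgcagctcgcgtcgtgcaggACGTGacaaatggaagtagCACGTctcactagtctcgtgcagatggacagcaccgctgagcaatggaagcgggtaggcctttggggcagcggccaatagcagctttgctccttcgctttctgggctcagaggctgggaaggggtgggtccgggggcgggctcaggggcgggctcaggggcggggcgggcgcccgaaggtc

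The Slc2a1 window holds 1 ACGTG and 1 GCGTG, at 36 and 61 bases before the start. The Hk2 window holds 2 ACGTG, at 226 and 52 bases before the start, and the Pgk1 window also holds 2. The Ldha window shown, 1 of 2 for this gene, holds 2 CACGTG, beginning 145 and 48 bases before the start, besides 1 further ACGTG and 2 GCGTG. The other Ldha window, at a later start, holds 2 GCGTG, no ACGTG and no CACGTG. The Pfkl window holds a single GCGTG. Over the 10 genes, 14 of 17 RefSeq windows hold ACGTG or GCGTG, against 43.8% of all 32851 windows, and 1 of 17 holds CACGTG, against 7.15%. Some windows of Eno1 and of Aldoa overlap, so the same matches are counted in more than 1 window. By gene, 10 of 10 hold ACGTG or GCGTG, against 46.7% of 27025 genes, and 1 of 10 holds CACGTG, against 8.09%. Such matches occur in the genes that differed and in Pgk1, and they describe letters, not binding.

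The deposited values are scores on a log-like scale whose base is not given in the sources used here, so differences are in score units and are not fold changes. Scores below 0.495, the floor, were treated as 0.495. Array medians ranged from 0.68 to 1.12, and B6_Bs 1, B6_Bs 3, Sle2c1_Bs 3 and Sle2c1_B1a 4 lay apart from their groups. The B cell markers, 8 measured of 9 listed, averaged 2.92 to 3.02 on the B1a arrays and 3.07 to 3.22 on the Bs arrays. Of these 8, 5 were lower in B1a cells of B6 mice and 6 in Sle2c1 mice, and 0 were higher in either. Of 9 measured markers of B1a cells, 6 were higher in B1a cells of B6 mice and 4 in Sle2c1 mice, and 0 were lower in either. Among them, Cd5 and Bhlhe41 were at the floor on all 8 Bs arrays. Fcer2a of follicular B cells read at least 2.67 on the Bs arrays and at most 1.29 on the B1a arrays. Of 6 measured follicular and marginal zone markers, 3 were lower and 1 higher in B1a cells of B6 mice. In Sle2c1 mice 4 were lower and 0 higher. Klf2 of this list read 2.56 to 2.86 in B6_B1a against 2.11 to 2.51 in B6_Bs. Cd5 itself reached only 1.33 at most on the B1a arrays and lay at the floor on 2 of the 4 Sle2c1_B1a arrays. Cdkn2c read 1.04 to 1.35 in B6_B1a and at most 0.88 in Sle2c1_B1a, and 1.21 to 1.63 in B6_Bs and at most 0.60 in Sle2c1_Bs.

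B1a cells had higher signal than splenic B cells for the glucose transporter Slc2a1 and for hexokinase 2 in both strains, and for Ldha in Sle2c1 mice. The remaining enzymes, from phosphofructokinase P to pyruvate kinase, did not pass the test in either strain on their representative probe sets, and Pfkl was lower in B1a cells of Sle2c1 mice. In B6 mice 2 of 9 genes passed as higher and 0 as lower, where 9.21% of all probe sets passed as higher and 10.7% as lower. In Sle2c1 mice 3 of 9 passed as higher and 1 as lower, against 11.1% and 13.7% of all probe sets. Calls are more frequent among the 13476 probe sets above the 40th percentile on all arrays, which include every representative but that of Pfkl. In a separate fit of those alone, 2377 passed as higher and 2935 as lower in B6, and 2618 and 3361 in Sle2c1. Ldha also passed as higher in B6 in that fit (limma adjusted p = 0.0166), whereas the gene counts above come from the fit of all 35032 probe sets. Both Slc2a1 and Hk2, 2 of 9, were higher in each of the strains, as were 6.33% of all probe sets. The median difference of the 9 genes was 0.07 in B6 and 0.05 in Sle2c1, beside -0.03 in each strain over all 35032 probe sets. These 2 comparisons share no arrays. In such bulk samples, fewer cells of a type and less RNA per cell cannot be told apart.

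**Figure D1:**
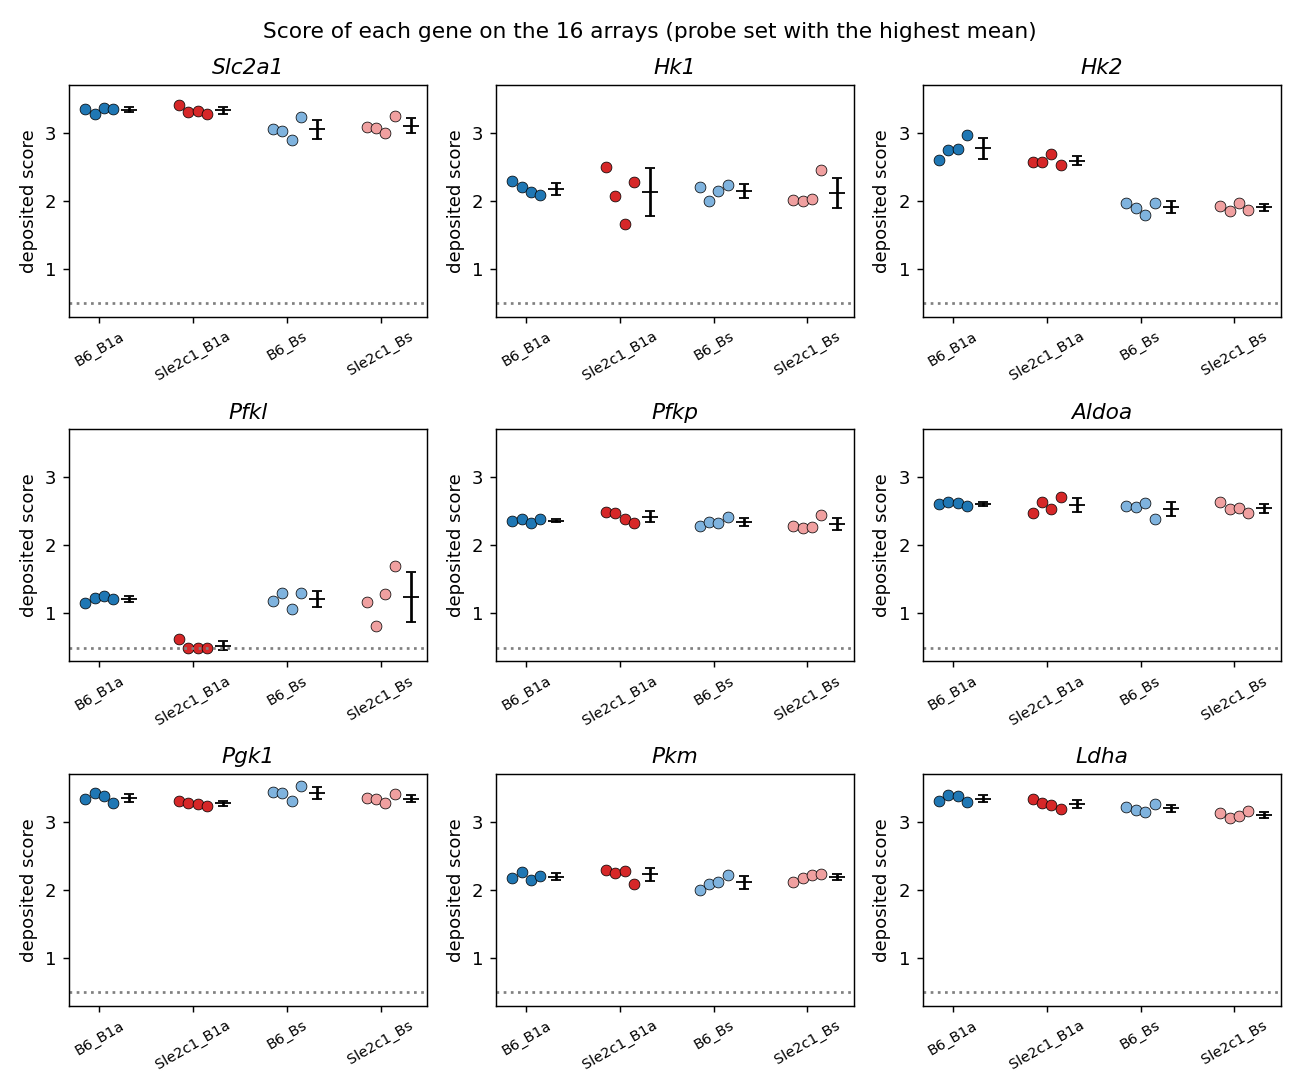
Deposited score (y axis) of the representative probe set of each of the 9 genes on the 16 arrays, by group. Points are arrays, the bar beside them is mean ± SD (n = 4), and the dotted line is the floor at 0.495. Hk2 and Slc2a1 separate the B1a arrays from the Bs arrays of both strains, and Pfkl is near or at the floor on the 4 Sle2c1_B1a arrays only.

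Slc2a1 was measured by 3 probe sets. On the representative one (1434773_a_at), the B6_B1a arrays read 3.35, 3.28, 3.36 and 3.35, and the B6_Bs arrays 3.05, 3.02, 2.89 and 3.23. The Sle2c1_B1a arrays read 3.40, 3.30, 3.32 and 3.28, and the Sle2c1_Bs arrays 3.09, 3.07, 3.00 and 3.25. Every B1a array lay above every Bs array of its strain, although the closest arrays, at 3.28 and 3.23 in B6 and at 3.28 and 3.25 in Sle2c1, nearly met. Here B1a minus Bs was 0.29 in B6 (SE 0.0737, limma adjusted p = 0.0140) and 0.22 in Sle2c1 (adjusted p = 0.0402). The exact permutation p was 0.0286 in each strain, the smallest that 4 against 4 arrays can give.

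The other Slc2a1 probe sets differed more. Probe set 1426600_at read 2.86, 2.88, 3.03 and 2.83 on the B6_B1a arrays against 2.55, 2.31, 2.28 and 2.39 on the B6_Bs arrays, and 2.89, 2.80, 2.86 and 2.75 on the Sle2c1_B1a arrays against 2.51, 2.48, 2.34 and 2.61 on the Sle2c1_Bs arrays. Its cell type difference was 0.52 in B6 (limma adjusted p = 0.00025) and 0.34 in Sle2c1 (adjusted p = 0.00484). For 1426599_a_at the difference was 0.42 in B6 (adjusted p = 0.000613) and 0.32 in Sle2c1 (adjusted p = 0.00374). Groups did not overlap on either probe set. With arrays centred on their medians, the Sle2c1 differences of 1434773_a_at, 1426599_a_at and 1426600_at were 0.20, 0.29 and 0.32 but no longer passed (adjusted p = 0.341, 0.147 and 0.135), nor did that of 1434773_a_at in B6 at 0.32 (adjusted p = 0.131). The Sle2c1 call of 1434773_a_at also ended without any 1 of 6 arrays (adjusted p 0.0635 to 0.121), with no floor and with only the 8 arrays compared. Without the 4 arrays that stand apart, 1434773_a_at no longer passed in B6 (adjusted p = 0.0931) or Sle2c1 (adjusted p = 0.0716), whereas both other probe sets did.

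Hexokinases phosphorylate glucose, Hk1 broadly in most tissues and Hk2 as an inducible form. Hk2 (1422612_at) had the largest cell type difference of the 9 genes in B6. It read 2.60, 2.75, 2.76 and 2.96 on the B6_B1a arrays and 1.97, 1.89, 1.79 and 1.97 on the B6_Bs arrays. The Sle2c1_B1a arrays read 2.57, 2.57, 2.69 and 2.53, and the Sle2c1_Bs arrays 1.93, 1.85, 1.97 and 1.87. The 2 cell types were far apart in both strains, with no B1a array under 2.53 and no Bs array over 1.97. B1a minus Bs was 0.86 in B6 (SE 0.0752, 95% confidence interval 0.70 to 1.02, limma adjusted p = 1.29e-06) and 0.69 in Sle2c1 (0.52 to 0.85, adjusted p = 1.16e-05). In comparison, 5.55% of all probe sets had a larger absolute difference in B6 and 10.6% in Sle2c1. Hk2 passed in both strains under every alternative run, with adjusted p at most 0.0126.

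Hk1 (1437974_a_at) averaged 2.18 ± 0.0877 (SD, n = 4) in B6_B1a and 2.15 ± 0.102 in B6_Bs, and 2.12 ± 0.353 in Sle2c1_B1a and 2.12 ± 0.220 in Sle2c1_Bs. The wide spread in Sle2c1_B1a came from arrays at 1.66 and 2.49. Cell type differences were 0.03 in B6 (95% confidence interval -0.29 to 0.35) and close to 0 in Sle2c1 (-0.32 to 0.32), so the intervals reach 0.35 in size. A second Hk1 probe set (1420901_a_at) read 1.35, 1.40, 0.86 and the floor in B6_B1a and was at the floor on all 8 Bs arrays. Its difference of 0.53 in B6, taken from Bs values at the floor, passed (adjusted p = 0.0288), but not with a floor at 1 or without the 4 arrays that stand apart, nor without any 1 of 5 arrays. In Sle2c1_B1a it was above the floor on 1 array.

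Phosphofructokinase takes the committed step of glycolysis, with a liver form (Pfkl) and a platelet form (Pfkp) that many cells share. Pfkp (1416069_at) read 2.33 to 2.38 in B6_B1a, 2.28 to 2.41 in B6_Bs, 2.33 to 2.49 in Sle2c1_B1a and 2.26 to 2.44 in Sle2c1_Bs. Its groups overlapped, and B1a minus Bs was 0.02 in B6 (adjusted p = 0.855) and 0.11 in Sle2c1 (adjusted p = 0.191). A second tested Pfkp probe set (1437759_at) differed by 0.095 in B6 (adjusted p = 0.801) and -0.09 in Sle2c1 (adjusted p = 0.786). Between the strains it differed by -0.21 in B1a (adjusted p = 0.658), with 2 Sle2c1_B1a arrays at the floor, and by -0.02 in Bs. Pfkl is described with the strains below.

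Aldolase A (Aldoa) and phosphoglycerate kinase 1 (Pgk1) act in the middle of the pathway. The representative Aldoa probe set averaged 2.54 to 2.61 in the 4 groups, and its cell type differences were 0.07 in B6 and 0.05 in Sle2c1 (95% confidence interval -0.10 to 0.19). All 5 Aldoa probe sets are of the class that can cross-hybridise with related sequences. Of these, 1447734_x_at passed as higher in Sle2c1_B1a, at 1.73, 2.09, 1.86 and 2.01, than in Sle2c1_Bs, at 1.77, 1.68, 1.55 and 1.32 (difference 0.34, adjusted p = 0.0213), with overlapping groups. The call ended without Sle2c1_B1a 2, without Sle2c1_Bs 3 and without Sle2c1_Bs 4 (adjusted p up to 0.0662), and the 4 other Aldoa probe sets did not pass.

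Pgk1 did not pass on any of its 3 probe sets. On 1417864_at it averaged 3.35 ± 0.0594 in B6_B1a and 3.42 ± 0.0900 in B6_Bs, and 3.27 ± 0.0330 in Sle2c1_B1a and 3.34 ± 0.0538 in Sle2c1_Bs. The differences were -0.07 in both strains (adjusted p = 0.421 and 0.406), with 95% confidence intervals that end at 0.05. The difference was below 0 in both strains on 1438640_x_at too (-0.025 in B6 and -0.07 in Sle2c1), and above 0 on 1439435_x_at (0.005 and 0.03). Pyruvate kinase (Pkm, 1417308_at), which yields pyruvate, differed by 0.09 in B6 (adjusted p = 0.367) and 0.04 in Sle2c1 (adjusted p = 0.683), with all groups between 2.00 and 2.29.

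Ldha (1419737_a_at) closes the route to lactate. It read 3.30, 3.39, 3.37 and 3.29 in B6_B1a and 3.22, 3.17, 3.14 and 3.26 in B6_Bs, and 3.33, 3.28, 3.24 and 3.19 in Sle2c1_B1a and 3.12, 3.05, 3.09 and 3.15 in Sle2c1_Bs. The B1a arrays lay above the Bs arrays in each strain, although the nearest pairs were close, 3.29 and 3.26 in B6 and 3.19 and 3.15 in Sle2c1. The difference was 0.14 in B6 (limma adjusted p = 0.0808) and 0.16 in Sle2c1 (adjusted p = 0.0448). With these, 3 of 9 genes (Slc2a1, Hk2 and Ldha) had B1a arrays wholly above Bs arrays in B6 and the same 3 in Sle2c1, where 11.2% and 10.2% of all probe sets did. The Ldha call was not firm: it ended in Sle2c1 without any 1 of 6 arrays (adjusted p 0.0641 to 0.122) and passed in B6 under 6 alternatives, among them quantile normalization (adjusted p = 0.0313).

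**Figure D2:**
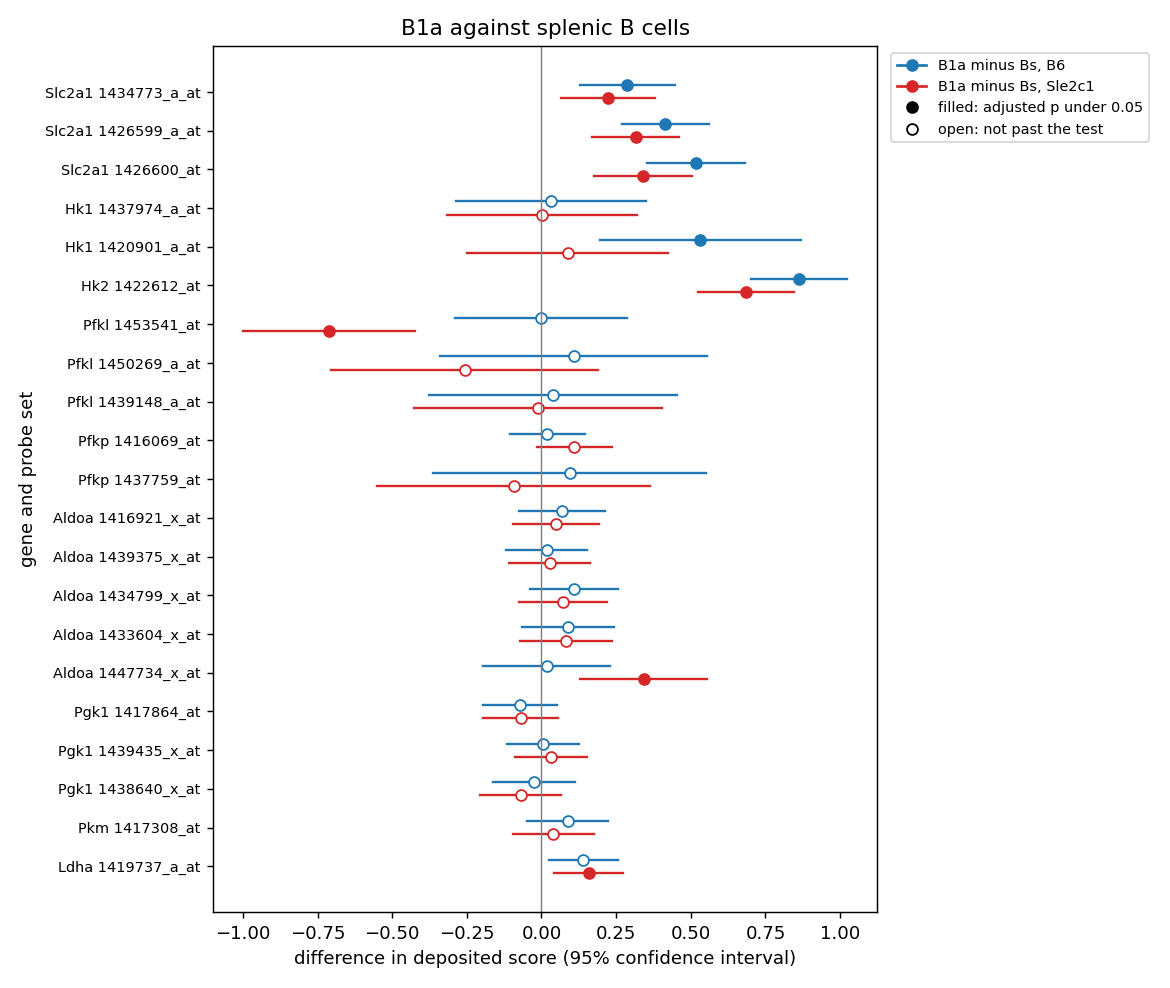
Difference in deposited score, B1a minus Bs, with its 95% confidence interval (x axis) for the 21 tested probe sets (y axis), in B6 and in Sle2c1 mice. Filled points passed the test. All 3 Slc2a1 probe sets and Hk2 lie above 0 in both strains, whereas the Pgk1 and Pkm intervals include 0.

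Markers of other cells also differed between the preparations. For comparison, 9.21% of all probe sets were higher and 10.7% lower in B1a in B6, and 11.1% and 13.7% in Sle2c1. Macrophage markers, 15 measured of 16, averaged 1.24 to 2.21 on the B6_B1a arrays and 1.25 to 1.42 on the B6_Bs arrays, with 8 higher and 2 lower in B1a. On the Sle2c1_B1a arrays they averaged 0.93 to 1.04, against 1.04 to 1.24 on the Sle2c1_Bs arrays, with 2 higher and 6 lower in B1a. Csf1r, C1qb, C1qc, Apoe, Timd4 and Marco were at the floor on all 4 Sle2c1_B1a arrays. On the same arrays Cd14 read 2.66 to 2.98 and Cd68 1.2 to 1.43, whereas on the Sle2c1_Bs arrays Cd14 was at the floor and Cd68 read at most 0.52. Mast cell markers were higher in B1a in both strains, 6 of 7 in B6 and 3 of 7 in Sle2c1. Their list averages were 1.41 to 1.80 in B6_B1a, 0.923 to 1.5 in Sle2c1_B1a and 0.495 to 0.709 over the Bs arrays. Of 9 measured T cell markers, 2 were higher and 1 lower in B1a in B6, and 1 higher and 1 lower in Sle2c1. Of 7 neutrophil markers, 2 were higher and 2 lower in B6, and 2 higher and 1 lower in Sle2c1. Of 5 NK cell markers, 0 were higher in either strain, with 3 lower in B6 and 2 in Sle2c1. The part of macrophages, mast cells and these other cells in the Hk2 and Slc2a1 differences was not tested.

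Among 19 other measured glycolytic enzymes, their regulators and glucose transporters, 5 were higher and 2 lower in B1a cells of B6 mice, and 3 were higher and 3 lower in Sle2c1 mice. The shares of all probe sets were 9.21% higher and 10.7% lower in B6, and 11.1% and 13.7% in Sle2c1. Pfkfb3, whose product makes the activator of phosphofructokinase, had the largest difference among the 19. It read 3.11, 3.03, 3.05 and 3.09 in B6_B1a against 2.03, 2.07, 2.08 and 2.22 in B6_Bs (difference 0.97, adjusted p = 1.15e-07), and the Sle2c1 difference was 0.85 (adjusted p = 4.03e-07). The groups were far apart in each strain, and the call held under every alternative run. Tpi1, the triose isomerase, was higher by 0.25 in B6 and 0.32 in Sle2c1, and Pgam1, the phosphoglycerate mutase, by 0.18 and 0.15. Slc2a3, a second glucose transporter (GLUT3), was lower in B1a by -0.24 in B6 and -0.31 in Sle2c1. Bpgm, which diverts a glycolytic intermediate to 2,3-bisphosphoglycerate, was lower by -0.30 and -0.57. The calls of Tpi1, Pgam1, Slc2a3 and Bpgm in B6 all ended with median centring (adjusted p 0.127 to 0.226), as did those of Tpi1 and Pgam1 in Sle2c1. The Pgam1 call in Sle2c1 also ended without Sle2c1_B1a 2 or 3, or without any single Sle2c1_Bs array (adjusted p 0.0529 to 0.0947). In B6, the Pgam1 call ended without B6_B1a 2 (0.0536). That of Tpi1 in B6 ended without B6_B1a 2, B6_B1a 3, B6_Bs 3 or B6_Bs 4 (0.0603 to 0.0798).

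**Figure D3:**
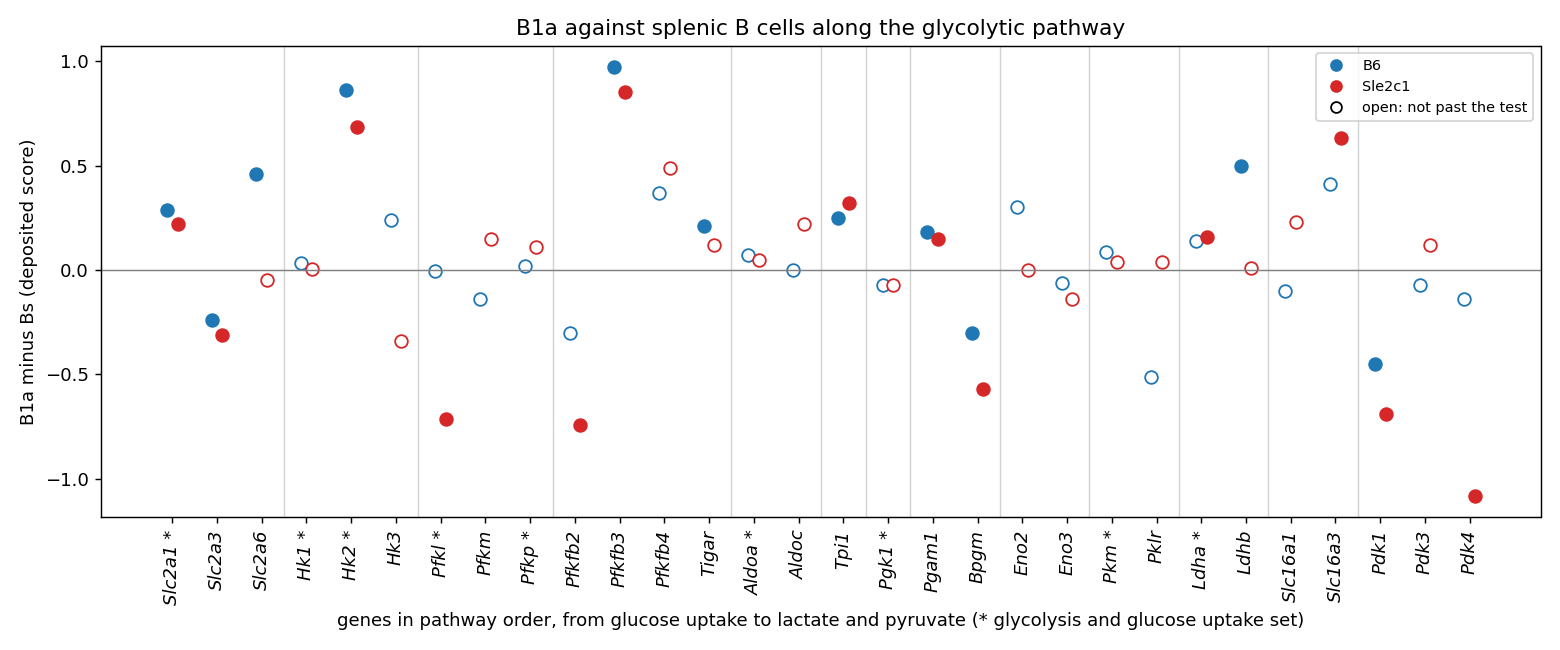
B1a minus Bs difference in deposited score (y axis) for genes in pathway order from glucose uptake to lactate and pyruvate (x axis), in B6 and in Sle2c1 mice. Filled points passed the test and asterisks mark the 9 genes of the set. Hk2 and Pfkfb3 stand highest in both strains, while Slc2a3, Bpgm and Pdk1 lie below 0.

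The pathways leading off glycolysis held genes that passed in each direction, as did probe sets in general. Over all probe sets, 9.21% were higher and 10.7% lower in B6, and 11.1% and 13.7% in Sle2c1. Of 17 measured genes for the exits of lactate and pyruvate, 2 were higher and 1 lower in B6, and 3 higher and 2 lower in Sle2c1. Pdk1, a kinase that restrains entry of pyruvate into the mitochondrial cycle, was lower in B1a by -0.45 in B6 (adjusted p = 5.78e-05) and -0.69 in Sle2c1 (adjusted p = 5.4e-07). Of 7 pentose phosphate enzymes, 1 was higher in B6, and 2 were higher and 1 lower in Sle2c1. H6pd, the form in the endoplasmic reticulum, was higher by 1.27 in B6 (adjusted p = 8.83e-06) and 1.17 in Sle2c1 (adjusted p = 1.56e-05). Of 14 genes of gluconeogenesis and glycogen, 2 were higher and 1 lower in B6, and 0 higher and 1 lower in Sle2c1.

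Regulators passed in both directions, as did probe sets in general (9.21% higher and 10.7% lower in B6, 11.1% and 13.7% in Sle2c1). Of 24 measured, 4 were higher and 6 lower in B1a of B6 mice, and 5 were higher and 4 lower in Sle2c1 mice. Myc was higher by 0.70 in B6 (adjusted p = 0.000561) and 0.92 in Sle2c1 (adjusted p = 3.73e-05). Txnip, which promotes internalisation of glucose transporters, was lower by -0.41 in B6 and -0.33 in Sle2c1. Hif1a differed by 0.14 in B6 (adjusted p = 0.112) and was higher by 0.21 in Sle2c1 (adjusted p = 0.0236). The Sle2c1 call ended without Sle2c1_B1a 2 (adjusted p = 0.057), without Sle2c1_Bs 4 (0.067), without the 4 arrays that stand apart (0.0537) and with median centring (0.204). Of 18 other hypoxia-inducible genes, a list that shares Pfkfb3, Pfkfb4, Pdk1, Egln3 and Slc16a3 with the lists above, 5 were higher and 2 lower in each strain. Adm, the adrenomedullin gene, was higher by 1.69 in B6 and 1.36 in Sle2c1. Pfkfb3, Egln3 (0.67 and 0.87) and Ero1a (0.34 and 0.28) were also higher in both strains, while Pdk1 was lower in both. Egln3 in B6 no longer passed with a floor at 1 (limma adjusted p = 0.1) or without the 4 arrays that stand apart (0.121). Its call also ended without B6_B1a 3 (0.0541), B6_B1a 4 (0.0558) or B6_Bs 2 (0.0547), and with only the 8 arrays compared (0.0556). Ero1a in Sle2c1 no longer passed with median centring (0.0948). Pgk1, a known HIF target outside this list, did not pass.

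Between the strains, Pfkl was the only gene of the 9 to pass, with lower signal in Sle2c1 than in B6 B1a cells. This was 1 of 9 genes, where 3.51% of all probe sets passed in either direction, and the median difference of the 9 genes was -0.06 beside 0.02 over all probe sets. In splenic B cells 0 of 9 passed by limma, and 0 of 9 had an unadjusted p under 0.05. Of all probe sets, 0.131% passed in Bs cells and 3.45% had an unadjusted p under 0.05. Both strain comparisons share arrays with the cell type comparisons.

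Pfkl (1453541_at) read 1.15, 1.22, 1.26 and 1.21 on the B6_B1a arrays. On the Sle2c1_B1a arrays it read 0.63 on replicate 1 and was at the floor on the other 3. The B6_Bs arrays read 1.18, 1.3, 1.07 and 1.3 and the Sle2c1_Bs arrays 1.17, 0.81, 1.28 and 1.70. The Sle2c1_B1a arrays thus lay below all 12 others, at low scores. Sle2c1 minus B6 was -0.68 in B1a (SE 0.134, 95% confidence interval -0.97 to -0.39, limma adjusted p = 0.0106, exact permutation p = 0.0286) and 0.03 in Bs (-0.26 to 0.31). The groups did not overlap in B1a, where 4.28% of all probe sets had Sle2c1 wholly below B6. B1a minus Bs, which shares the Sle2c1_B1a arrays, was -0.71 in Sle2c1 (adjusted p = 0.00137) and close to 0 in B6 (-0.29 to 0.28). The Sle2c1 groups did not overlap, where 14.4% of all probe sets had B1a wholly below Bs. With a floor at 1 this Sle2c1 difference was -0.29 and no longer passed (limma adjusted p = 0.0791). On probe set 1450269_a_at it was -0.26 (adjusted p = 0.395).

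The other 2 Pfkl probe sets did not pass. Probe set 1450269_a_at read 0.89, 1.20, 0.99 and 1.04 in B6_B1a and 0.73, 0.81 and the floor on 2 arrays in Sle2c1_B1a, a difference of -0.40 with groups that did not overlap (adjusted p = 0.351). Probe set 1439148_a_at was at the floor on 3 of 4 arrays in each B1a group, and its difference was 0.08 (adjusted p = 0.877). Because most Sle2c1_B1a values lay at the floor, the size of the representative's difference depends on it, from -0.21 with a floor at 1 (adjusted p = 0.394) to -5.09 with no floor. The strain call also ended without the 4 arrays that stand apart (difference -0.67, adjusted p = 0.0505). Macrophage markers were lower in Sle2c1_B1a as well, with 8 of 15 passing, and their part in the Pfkl difference was not tested.

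Hk2 was 0.18 lower in mean in Sle2c1_B1a than in B6_B1a, and this difference of -0.18 (95% confidence interval -0.34 to -0.02) did not pass (limma adjusted p = 0.241, exact permutation p = 0.0571). The groups overlapped, with B6_B1a 1 at 2.60 below Sle2c1_B1a 3 at 2.69. In Bs cells the Hk2 means were equal at 1.91 (95% confidence interval of the difference -0.16 to 0.16). Slc2a1 differed by -0.01 in B1a (-0.17 to 0.15) and 0.06 in Bs (-0.10 to 0.21). Ldha differed by -0.08 in B1a (-0.19 to 0.04) and -0.10 in Bs (-0.21 to 0.02). The remaining representatives, Hk1, Pfkp, Aldoa, Pgk1 and Pkm, differed by at most 0.09 in size in either cell type. The second Hk1 probe set (1420901_a_at) differed by -0.44 in B1a (adjusted p = 0.156), and without B6_B1a 4, its only B6_B1a array at the floor, by -0.62 (adjusted p = 0.0107).

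**Figure D4:**
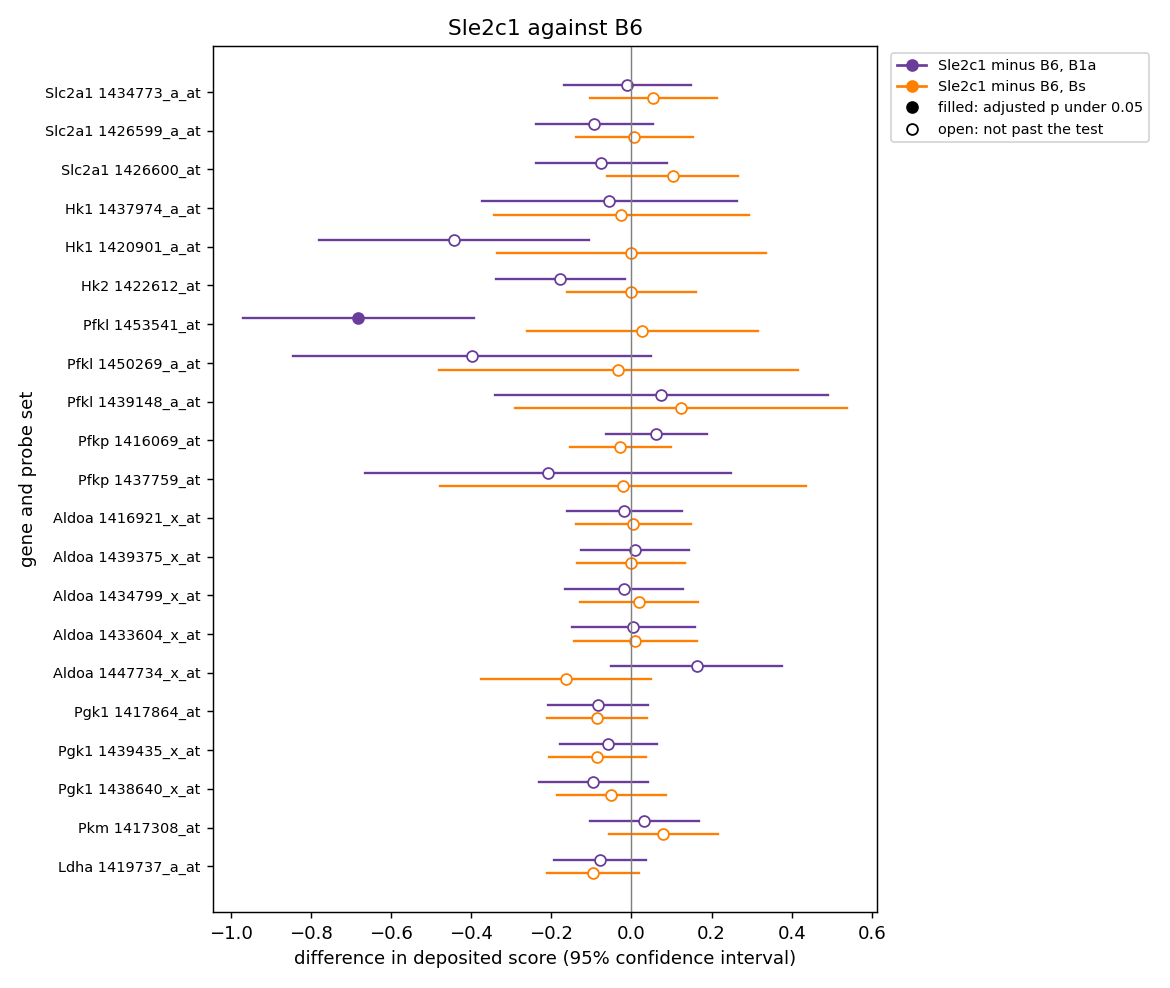
Difference in deposited score, Sle2c1 minus B6, with its 95% confidence interval (x axis) for the 21 tested probe sets (y axis), in B1a and in Bs cells. Pfkl 1453541_at in B1a cells is the only filled point, at -0.68, and the Bs intervals all include 0.

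The difference of the strain effects between B1a and Bs cells was tested directly, and 0 of 9 genes passed by limma, where 0.462% of all probe sets did. An unadjusted p under 0.05 was reached by 1 of 9 genes and by 7.76% of all probe sets. For Pfkl it was -0.71 (SE 0.190, adjusted p = 0.191), and for Hk2 -0.18 (adjusted p = 0.796). Without Sle2c1_Bs 2 the Pfkl value was -0.85 and passed (adjusted p = 0.0311). Among the other pathway genes, the strain comparison in B1a cells gave lower signal in Sle2c1 for Bpgm (-0.32, adjusted p = 0.0318) and Slc2a6 (-0.67, adjusted p = 0.0189) of 19 glycolytic genes. The Bpgm call ended without any 1 of 5 arrays (adjusted p up to 0.0996) and the Slc2a6 call without any 1 of 3 (adjusted p up to 0.0525). Of the exits, Ldhb, the subunit that favours pyruvate formation, was lower (-0.49, adjusted p = 0.00144) with all but 5 of its 16 values at the floor, and by -0.07 with a floor at 1 (adjusted p = 0.279). None of 24 regulators, 7 pentose phosphate or 14 gluconeogenesis and glycogen genes passed between the strains in either cell type. Of the hypoxia-inducible genes, Bnip3, a mitochondrial autophagy receptor, was lower in Sle2c1_B1a by -0.87 (adjusted p = 0.0002), and its strain effects differed between cell types by -0.92 (adjusted p = 0.0105). It read 1.00 and 0.64 on Sle2c1_B1a 1 and 2, was at the floor on 3 and 4, and read 1.43 to 1.65 in B6_B1a. With no floor neither call held (-3.75 with adjusted p = 0.187, and -3.8 with adjusted p = 0.808), and without the 4 arrays that stand apart the difference of strain effects had an adjusted p of 0.0633. Mxi1, a MYC antagonist gene, was lower by -0.26 in Sle2c1_B1a (adjusted p = 0.0429). It no longer passed when any 1 of 6 arrays was left out (adjusted p up to 0.124).

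The mean score of the 9 representatives summarises the set on each array. It was 2.57 to 2.62 in B6_B1a, 2.43 to 2.55 in Sle2c1_B1a, 2.38 to 2.50 in B6_Bs and 2.34 to 2.55 in Sle2c1_Bs. B6_B1a arrays therefore stood highest, and the other 3 groups overlapped. This mean includes Pfkl, which differed by -0.68 between Sle2c1_B1a and B6_B1a with most Sle2c1_B1a values at the floor. Among the other 8 genes the largest difference in that comparison was -0.18, for Hk2, and none passed. Over the 16 arrays and 6907 genes above the floor throughout, the genes most like this mean were Pigb (r = 0.917), Arpp19 (0.911), Dctn6 (0.904), Bcas3 (0.904) and Themis2 (0.899). For Pigb r was 0.861 within the 8 B1a arrays and 0.871 within the 8 Bs arrays. The genes most like Pfkl were Tmem245 (0.859), Lrrc8d (0.838), Apeh (0.827), Rbl2 (0.819) and Mef2d (0.818), and for Tmem245 r was 0.934 within B1a and 0.420 within Bs arrays. These values describe arrays that share groups and scaling.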

How the data were processed

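The deposited table holds 1 score per probe set and array for 45101 probe sets, 64 of them controls. The authors gave no unit, and the score behaves like a log signal of unstated base, centring and scaling. Per the labels' protocols, total RNA was amplified and biotin-labelled (NuGEN Ovation). The arrays have no counts or depth, so their number limits the precision. Log2 values had been assumed when the tests were planned, and scores were tested in their place with limma.

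Each array had a lowest value, -7.72 to -4.99, shared by 22.8% to 35.6% of its probe sets. A floor of 0.495 replaced lower values. It is the median, taken over the 16 arrays, of their 40th percentiles. A probe set was tested if it exceeded the 40th percentile of the array in question for 4 arrays or more (35032 probe sets). Of all probe sets, the platform annotation gave 34958 a single gene, 932 several genes and 9211 no gene, and symbols were updated through a RefSeq table of GRCm38.p6. All probe sets whose annotation names a member alone were used, and 1 that names Hk1 beside other genes was left out.

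The 4 group means were fitted in 1 model (limma 3.58.1, R 4.3.3), with two-sided moderated tests and Benjamini-Hochberg adjustment over all 35032 probe sets. The threshold was an adjusted p under 0.05. Exact two-sided permutation tests used the 70 arrangements of 4 against 4 arrays. From each other list, up to 4 genes with the smallest adjusted p in a comparison, and any that passed, could be named. Likeness was ranked by r, with the 5 highest named, among genes outside the lists. The script was tested on simulated data. Alternatives were other floors, filters, scalings, thresholds, moderation, arrays and a replicate block. The members, lists and tests were chosen with earlier results of these data known.

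The labels call the 4 samples of a group biological replicates but do not say what replicate numbers mean. In the Bs comparison, the deviations of same-numbered arrays correlated (r 0.128 to 0.686). Replicates 1, 3 and 4 matched their own number best, but replicate 2 (r = 0.128) did not, so whether the numbers pair the Bs samples is not settled.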

Additional observations from a re-analysis of the deposited data

Results flagged for a closer look

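In 71 groups of 4 arrays examined among the glycolysis probe sets, 4 had an array whose gap to its nearest neighbour took up more of the group's range than Dixon's 95% critical value allows. Chance gives this in about 1 in 20 groups. Slc2a1 (1434773_a_at) read 3.28 on B6_B1a 2, the other 3 arrays 3.35 to 3.36. Sle2c1_Bs 4 was high for 3 probe sets, at 2.45 for Hk1 (1437974_a_at), 2.44 for Pfkp (1416069_at) and 2.96 for Pgk1 (1439435_x_at). Its 3 companions read 2.00 to 2.02, 2.26 to 2.28 and 2.83 to 2.85. The same array read highest of its group for Slc2a1 (3.25) and Pfkl (1.70).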

How the results depend on the processing

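Over the 9 representatives and 5 comparisons, 956 of 994 recomputed values kept their direction, where called, and their side of the threshold, 31 fell short of it, 7 newly passed and 0 reversed. The number of the 9 genes passing between strains in B1a was 1, and it was 0 with a floor at 1, with probe sets above the 40th percentile on all arrays (8 genes tested, without Pfkl), without the 4 arrays that stand apart, and with a replicate block in a fit of the 8 arrays compared, an alternative added after the data were seen. With single arrays left out it was 1 throughout. In Bs it was 0 in every run. For the difference of the strain effects it was 0, and 0 to 1 with single arrays left out. B1a against Bs in B6 gave 2 genes, 1 (Hk2) with median centring, without the 4 arrays, and with the block in 8 arrays, and 3 (with Ldha) under 6 alternatives. In Sle2c1 it gave 4, 2 with no floor, median centring, only the 8 arrays compared or without the 4 arrays, 1 (Hk2) with the block in 8 arrays, and 2 to 4 with single arrays left out. The replicate block in all 16 arrays gave 1, 0, 0, 2 and 3 genes for the 5 comparisons in the order of strain in B1a, strain in Bs, their difference, and cell type in B6 and in Sle2c1. The causes were not tested, except that fewer arrays or genes enter some fits by construction.

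Same-numbered arrays correlated from 0.0157 to 0.228 (strain in B1a), -0.0550 to 0.122 (cell type in B6) and -0.225 to 0.114 (cell type in Sle2c1), and not every array matched its own number best. In Bs, where replicate 2 did not match its own number best, the block changed no call of the 9 genes. Over all probe sets, fits of only the 8 arrays compared gave 133 calls with the block and 630 without it for strain in B1a, 1 and 33 in Bs, 3149 and 5701 for cell type in B6 and 3847 and 7043 in Sle2c1, beside 1231, 46, 6984 and 8676 from all 16 arrays without it. Strain in B1a gave 107 (above the 40th percentile on all arrays), 630 (only the 8 arrays), 657 (no floor), 768 (1 probe set per gene), 805 (floor at 1) and 2112 calls (threshold 0.10). In Bs it gave 1, for the filter on all arrays, to 84, without B6_Bs 3, and the difference of strain effects 0, for that filter, to 292, without Sle2c1_B1a 1, against 162. Median centring moved the share of calls that were higher from 53.4% to 42.5% for strain in B1a and from 44.7% to 34.7% for cell type in Sle2c1, and for strain in Bs it went from 82.6% to 72.2% with quantile normalization, 66.7% with a floor at 1 and 52.5% with no floor. Low scores limit Pfkl, since most Sle2c1_B1a values lay at the floor.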
